A study of Danio rerio with 12 samples.

Results

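The genes described here are 51 zebrafish genes that still carried a provisional name in the deposited table and whose mean level was higher with each step in methylmercury dose. A symbol starting with si: comes from a clone of the Sanger Institute genome project, and one starting with zgc: from the Zebrafish Gene Collection of cDNA clones. Such a name is a placeholder that is replaced once a gene is recognised. The table held 32057 genes, of which 4345 had a symbol of either kind. A gene was a member when its mean level rose strictly from control to 6, 30 and 50 µg/L, when its mean at 50 µg/L was at least 1 FPKM and at least 2 times the control mean, and when its highest control library lay below its lowest library at 50 µg/L. FPKM is a read count scaled by exonic length and by library depth, so levels can be compared between genes. All 12 libraries entered this choice, so the levels and fold changes below describe the members and do not test them.

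Methylmercury (MeHg) is an organic form of mercury that binds thiol groups of proteins and of glutathione and that enters the brain. Cells answer such agents with metal-binding proteins, with enzymes that restore glutathione and remove reactive aldehydes, and with chaperones. The samples were whole wild-type (WT) embryos of Danio rerio in 4 groups of 3 libraries, one untreated (0 µg/L) and the others kept in water with 6, 30 or 50 µg/L MeHg between 4 and 72 h after fertilisation. The sources used here do not say whether the 3 samples of a group were separate clutches or tanks, so their spread may be technical. In RNA from whole embryos, more cells of a type and more RNA per cell cannot be told apart.

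The libraries held 15665053 to 22207603 gene counts. Markers of photoreceptors, liver, exocrine pancreas, blood, fast muscle, epidermis, macrophages and neutrophils were all detected in the data. Several moved with dose: the summed level of 5 photoreceptor markers was 685 to 1060 FPKM in controls and 11.2 to 16.6 at 50 µg/L, and that of 3 exocrine pancreas markers 30.4 to 39.9 and 5.5 to 6.64, with cela1.1 at 0 in all libraries at 50 µg/L. At that dose 5 of 5 photoreceptor, 2 of 2 tested pancreas and 3 of 3 hepatocyte markers were called lower (edgeR, adjusted p under 0.05). Their part in the members' levels was not tested. Control replicate 3 stood apart from the other controls, with rank correlations of 0.907 and 0.928 to them against 0.984 between control replicates 1 and 2. The known responders were high at the top dose: mt2, a metal-binding metallothionein gene, had a log2 fold change of 4.71 ± 0.28 (SE) at 50 µg/L, and prdx1, a peroxide-reducing enzyme gene, 3.32 ± 0.21 (edgeR, adjusted p = 2.6e-07 and 4.2e-07). At 6 µg/L mt2 was not higher, at -0.78 ± 0.25, while prdx1 stood at 0.89 ± 0.20 (edgeR, adjusted p = 0.057 and 0.011).

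The label of an uncharacterised gene fits only part of the set. By gene ID, 10 of the 51 members have a proper name in the reference table of symbols. They are ptgr1.2, e2f2, troap, haspin, cenpu, hrob, cd68, mymx, dhrs12lb and syne2b. That is 19.6% of the members, beside 14.3% of all si: and zgc: genes. A GO term or a KEGG orthology number was present in the table for 25 members (49.0%), beside 43.2% of all si: and zgc: genes and 61.1% of all genes. RefSeq held 40 of the members, 37 as protein-coding genes and 3 as long noncoding RNAs. From these annotations, 9 members belong to cell division and chromatin, 6 to DNA binding and transcription, 4 to immunity and phagocytes, 2 to redox enzymes, 3 to long noncoding RNA and 6 to other functions, while 21 have none that places them.

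The members differed widely in level and in the size of the rise. Their mean levels at 50 µg/L ran from 1.24 to 333 FPKM with a median of 3.43, and 31 lay under 5 FPKM while 12 reached 10 FPKM. The ratio of the mean at 50 µg/L to the control mean ran from 2.00 to 28.5 with a median of 2.76. It was under 3 for 28 members, at least 4 for 13 and at least 8 for 8. At 6 µg/L the median ratio was 1.52 and 9 members had reached 2 times control, and at 30 µg/L it was 2.2 with 33 members at 2 times control.

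**Figure D1:**
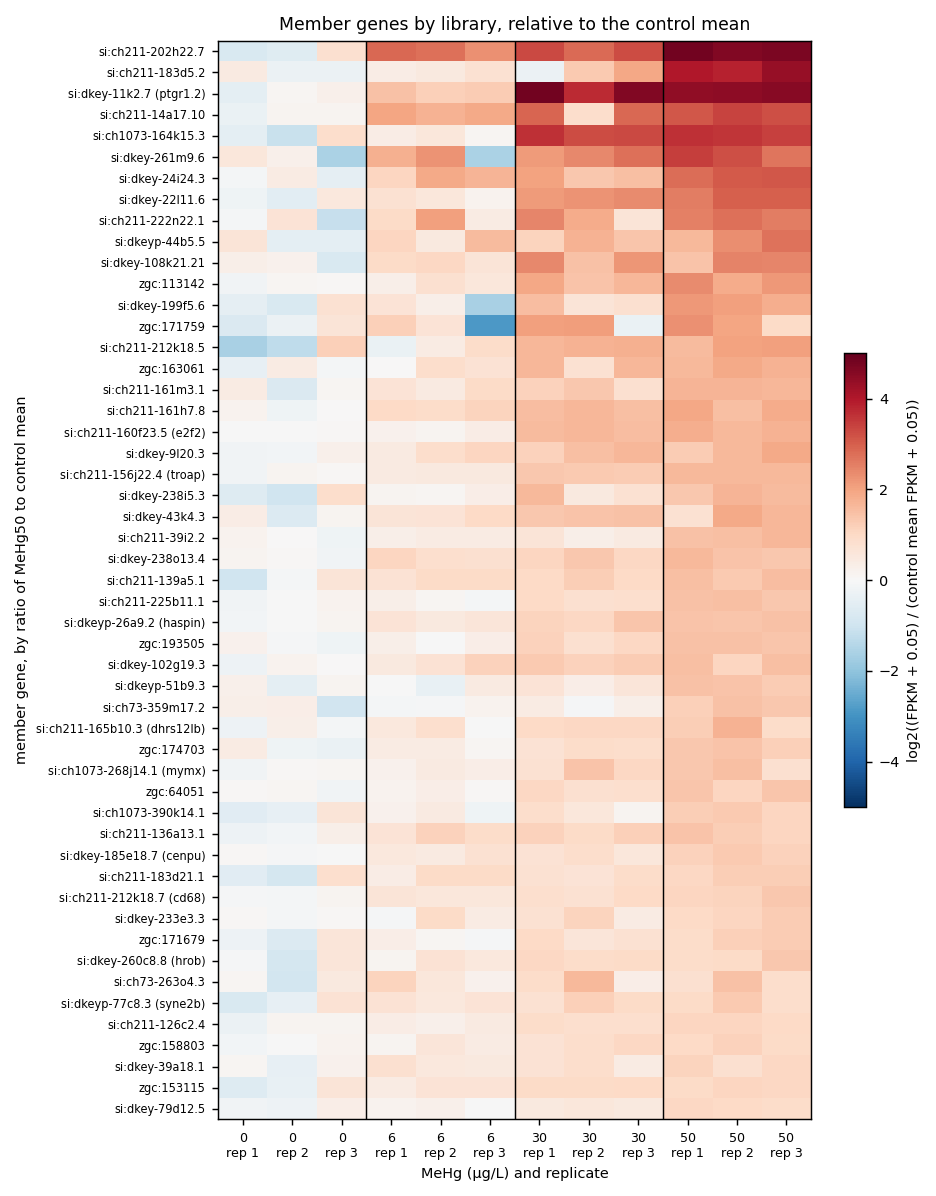
Each row is 1 of the 51 members and each column 1 library, with 3 replicates per dose. Colour gives the log2 of the FPKM over the control mean, with 0.05 FPKM added to both. The 8 members at the top are those with at least 8 times the control level at 50 µg/L, and the column of control replicate 3 is redder than the other controls in several rows.

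The largest ratio belonged to si:ch211-202h22.7 (ENSDARG00000073912, chromosome 1, 54650048 to 54659923, plus strand, GRCz11). It is annotated with cytokine production and activity, zinc ion binding, DNA binding and sexual reproduction. The annotated places are the nucleus, the Golgi membrane and the cytoplasmic side of endosomal, lysosomal and plasma membranes. The gene's levels were 0.32, 0.36 and 1.04 FPKM in the controls, 4.54, 4.16 and 2.97 at 6 µg/L, 6.08, 4.41 and 5.94 at 30 µg/L, and 17.5, 15.36 and 16.18 at the top dose. All exposed libraries lay above all controls, and those at 50 µg/L lay above the rest. The log2 fold change against control (edgeR, ± SE) was 2.63 ± 0.32, 3.25 ± 0.31 and 4.82 ± 0.30 at the 3 doses. It was also the member with the largest ratio at the lowest dose, at 6.78 times control.

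The second ratio in order had another course. The gene si:ch211-183d5.2 (chromosome 7, 8967974 to 8981507, minus strand), without annotation, stood at 0.18, 0.09 and 0.09 FPKM in controls, at 0.17, 0.19 and 0.24 at 6 µg/L, at 0.09, 0.37 and 0.60 at 30 µg/L and at 2.65, 2.42 and 3.42 at 50 µg/L. The 3 lower groups overlapped and the libraries at 50 µg/L stood clear of all others. Its counts were 7 in the controls together and 170 at 50 µg/L, so the ratio of depth-scaled counts was 24.7 with an exact 95% interval of 11.7 to 62.4, which covers counting error only.

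Among the redox enzymes, si:dkey-11k2.7 (ENSDARG00000087017, chromosome 7, 24366962 to 24373662, minus strand) is now named ptgr1.2. Prostaglandin reductase 1, as known from mammals, uses NADPH to reduce prostaglandins and reactive alkenals, and the deposited annotation gives both activities. Its levels were 1.05, 1.62 and 1.81 FPKM in controls and 4.2, 3.43 and 3.70 at 6 µg/L. At 30 µg/L they were 43.33, 20.23 and 37.66 FPKM, and at 50 µg/L 33.54, 33.86 and 36.38. The gene was higher in every exposed library than in every control, and the groups at 30 and 50 µg/L overlapped. Its log2 fold changes were 1.22 ± 0.28, 4.50 ± 0.28 and 4.54 ± 0.28, which at 30 µg/L was larger than that of prdx1 (2.86 ± 0.21). The other enzyme, si:ch211-165b10.3 (dhrs12lb, with an oxidoreductase annotation), went from 1.14 ± 0.227 FPKM in controls to 1.63 ± 0.485, 2.35 ± 0.0551 and 2.94 ± 0.888 (SD, n = 3 per group here and below). Of 19 tested genes of thiol defence, such as those for glutathione synthesis, 8, 14 and 14 were higher and 1, 0 and 0 lower at the 3 doses, with medians of 0.27, 0.84 and 1.19 on the log2 scale. Of 24 heat shock genes 0, 8 and 17 were higher and 1, 1 and 0 lower, with medians of 0.12, 0.20 and 0.74. Over all genes tested the shares were 5.48%, 13.4% and 17.6% higher and 8.88%, 17.3% and 21.9% lower. Both lists were chosen with earlier results of these data known, so their counts are a description only.

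The remaining members of the leading 5 were low in controls and have no annotation in the table. For si:ch211-14a17.10 (chromosome 2, 38231695 to 38261272, minus strand) the controls were 0.06, 0.1 and 0.1 FPKM and the libraries at 6 µg/L 0.48, 0.41 and 0.46. At 30 µg/L it had 0.97, 0.20 and 0.95 FPKM, so 1 library lay below the whole group at 6 µg/L, and at 50 µg/L it had 1.13, 1.38 and 1.23. For si:ch1073-164k15.3 (chromosome 24, 38648885 to 38657683, minus strand) the controls were 0.24, 0.14 and 0.70 FPKM, and the libraries at 6 µg/L, at 0.48, 0.56 and 0.39, overlapped them. It stood at 5.17, 3.92 and 3.95 FPKM at 30 µg/L and at 5.12, 4.77 and 4.34 at 50 µg/L, so nearly the whole difference lay between 6 and 30 µg/L.

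**Figure D2:**
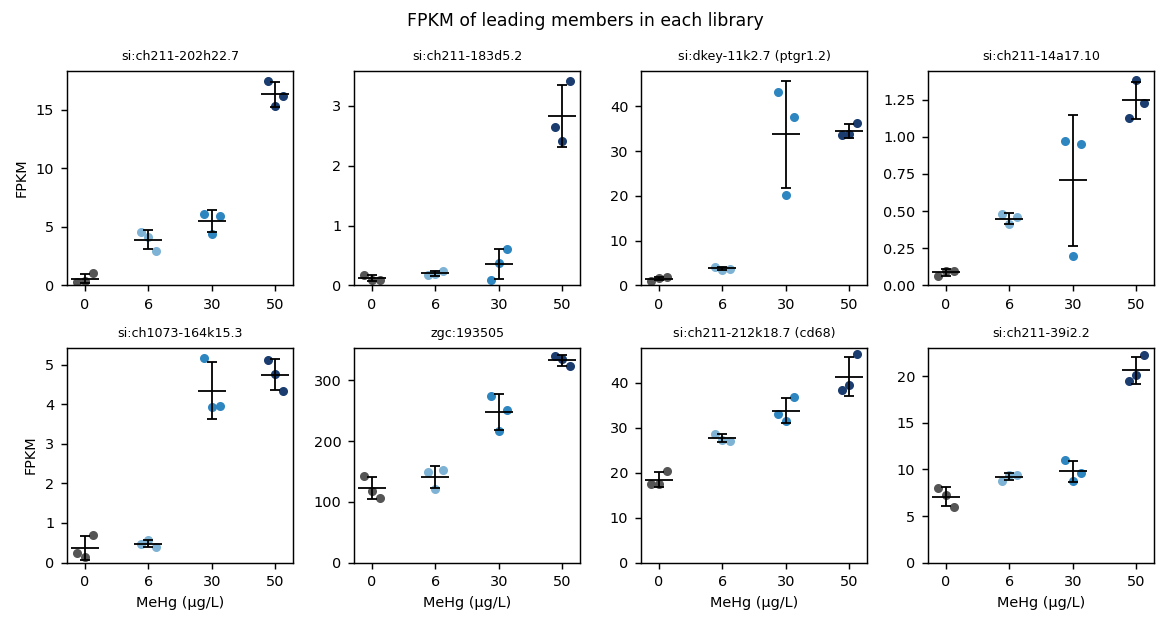
FPKM of 8 members by dose, with a point per library and the mean ± SD of 3 libraries in black. The largest step of si:ch211-183d5.2 and si:ch211-39i2.2 is that from 30 to 50 µg/L, and that of si:dkey-11k2.7 and si:ch1073-164k15.3 is that from 6 to 30 µg/L, while cd68 is higher at every step.

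Named genes with the most similar pattern over the 12 libraries, by Pearson r of log2(FPKM + 1), are given as a description of these libraries, which share the dose groups. Pearson r takes no account of the size of a change. For si:ch211-202h22.7 they were ptbp1b (r = 0.990) and gspt1l (0.988), and for si:ch211-183d5.2 the ferritin-like gene fthl27 (0.964) and the heat shock factor gene hsf2 (0.963). From control to 50 µg/L the mean of ptbp1b went from 31.1 to 52.8 FPKM and that of hsf2 from 15.1 to 20.9. These rises were far smaller than those of the 2 members. The level of fthl27 was 23.3, 21.6 and 23.9 FPKM up to 30 µg/L and 210 FPKM at 50 µg/L, the same late course. For ptgr1.2 they were cfbl (0.988), a complement factor B-like gene, and the kinetochore gene knl1 (0.985). For si:ch211-14a17.10 they were c4b (0.963) and ascl1b (0.959). For si:ch1073-164k15.3 they were bbc3 (0.988), which encodes a pro-apoptotic target of p53, and gch1 (0.987). The mean of bbc3 was 2.14, 1.87, 6.85 and 7.35 FPKM from control to 50 µg/L, again with the difference between 6 and 30 µg/L.

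The largest annotated group, 9 members, belongs to cell division and chromatin. The groups were set by hand after annotation and values were seen. The share of all si: and zgc: genes that would fall in each was not counted, so the size of a group is a description only. Of these, 3, 8 and 8 were called higher than control at 6, 30 and 50 µg/L by edgeR's quasi-likelihood test with Benjamini-Hochberg adjusted p under 0.05. Of all 19821 genes tested, 5.48%, 13.4% and 17.6% were called higher at these doses. Since the members were chosen on the same contrasts, these counts describe them and nothing is read from them. The median log2 fold change of the 9 was 0.49, 1.46 and 1.75.

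Among them are 5 with an established gene name. The highest in level was si:ch211-156j22.4 (troap, needed for spindle assembly in mammalian cells; chromosome 23, 27575539 to 27589829, minus strand), with 5.78, 7.13 and 6.73 FPKM in controls, 8.94, 9.19 and 9.17 at 6 µg/L, 16.95, 16.47 and 16 at 30 µg/L and 20.19, 20.3 and 19.99 at the top dose. No 2 of these groups overlapped, and its log2 fold changes were 0.37 ± 0.10, 1.35 ± 0.10 and 1.64 ± 0.10. It overlaps the gene CR354381.1 on the same strand by 129 bases, and that gene went from 1.57 to 6.98 FPKM.

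The gene si:ch211-160f23.5 is e2f2, which encodes a transcription factor that turns on genes for DNA replication. Its levels were 3.09, 3.08 and 3.26 FPKM in controls, 3.68, 3.47 and 4.07 at 6 µg/L, 9.43, 10.09 and 9.38 at 30 µg/L and 11.24, 9.70 and 10.47 at the top dose. The controls lay close together, control replicate 3 included. The step from 6 to 30 µg/L, a log2 difference of 1.49 ± 0.11, was the largest of the 3 steps, and the groups at 30 and 50 µg/L overlapped.

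The gene si:dkeyp-26a9.2 is haspin, which encodes the kinase that marks histone H3 at centromeres in mitosis, and si:dkey-185e18.7 is cenpu, which encodes a kinetochore protein. For haspin the means were 2.29 ± 0.243, 3.51 ± 0.268, 5.25 ± 0.76 and 6.26 ± 0.187 FPKM from control to 50 µg/L, with log2 fold changes of 0.52 ± 0.13, 1.22 ± 0.13 and 1.47 ± 0.13. For cenpu they were 2.02 ± 0.0751, 3.07 ± 0.363, 3.37 ± 0.38 and 4.70 ± 0.303 FPKM, with log2 fold changes of 0.49 ± 0.15, 0.75 ± 0.15 and 1.23 ± 0.15. In both genes all libraries at 6 µg/L lay above all controls, while for cenpu the groups at 6 and 30 µg/L overlapped. The gene si:dkey-260c8.8 is hrob, whose product brings a helicase to DNA breaks under repair in mammalian cells. It had 0.73, 0.40 and 1.19 FPKM in controls and 1.51, 1.55 and 2.03 at 50 µg/L, and against control replicate 3 alone its ratio was 1.43.

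The other 4 members of the group carry nucleosome annotations. Both si:dkey-261m9.6 and zgc:171759 share a KEGG orthology number with the H2B histone genes hist1h2ba and hist2h2l, and si:dkey-108k21.21 and zgc:163061 are annotated with nucleosome assembly. Their means at 50 µg/L were 1.29, 1.25, 1.43 and 3.44 FPKM in that order, against 0.10, 0.313, 0.273 and 0.983 in controls. The counts behind them were small. For si:dkey-261m9.6 they were 2 in the controls together and 27 at 50 µg/L, a ratio of depth-scaled counts of 13.7 with an exact 95% interval of 3.45 to 119 for counting error. For zgc:171759 they were 7 and 26, with a ratio of 3.78 and an interval of 1.60 to 10.3, and it is the 1 member that was not called at any dose. Histone genes exist in near-identical copies, so which copy these reads came from is uncertain, and most of their transcripts lack the poly(A) tail by which the libraries were selected. The genes si:dkey-108k21.21 (35103413 to 35104129, minus strand) and si:dkey-261m9.6 (35132090 to 35132464, plus strand) lie 27961 bases apart on chromosome 25.

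A list of 22 mitosis and replication genes, added after these members had been seen, was also higher with dose. The rule had set the order of the members over dose, so this shared order is a description and no test of a link. Its summed level was 650 to 805 FPKM in the controls, 845 to 879 at 6 µg/L, 1282 to 1317 at 30 µg/L and 1319 to 1393 at 50 µg/L. Of the 22 genes 9, 20 and 20 were called higher and none lower at the 3 doses, beside 5.48%, 13.4% and 17.6% of all genes called higher. The median log2 fold changes of the list were 0.37, 1.03 and 1.19, beside -0.0048, -0.036 and -0.038 over all genes tested. The part of the number of dividing cells in the levels of the 9 members was not tested.

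**Figure D3:**
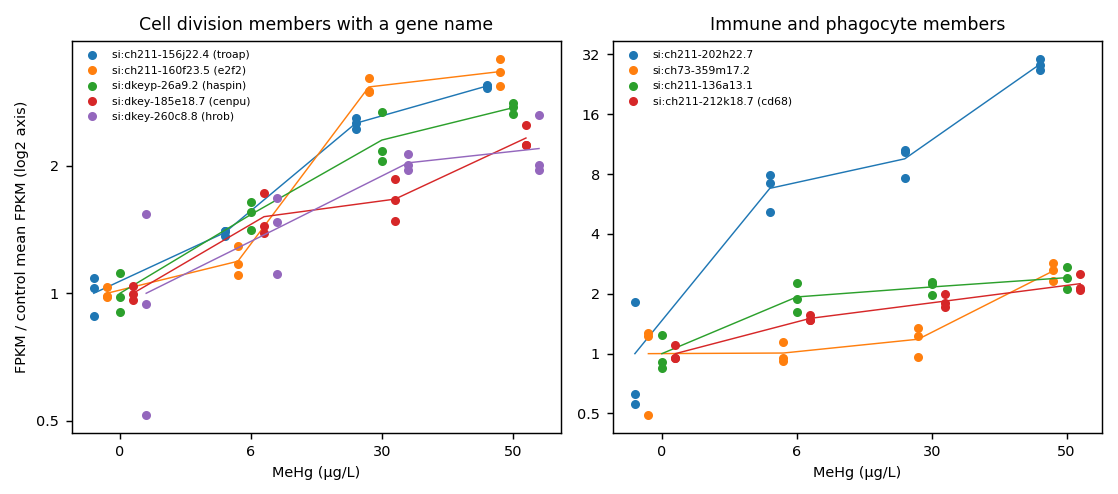
FPKM relative to the control mean on a log2 axis, with a point per library and lines through the group means, for 5 cell division members (left) and 4 immune and phagocyte members (right). The gene troap is ordered by dose with no overlap, e2f2 has its main step between 6 and 30 µg/L, and si:ch211-202h22.7 lies far above the other immune members.

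The immune and phagocyte group holds 4 members, with si:ch211-202h22.7 described above. The gene si:ch211-212k18.7 (chromosome 7, 19482084 to 19491627, plus strand) is cd68, which encodes a lysosomal membrane protein of macrophages. Its levels were 17.43, 17.42 and 20.35 FPKM in controls, 28.69, 27.3 and 27.09 at 6 µg/L, 33.12, 31.48 and 36.89 at 30 µg/L and 38.35, 39.49 and 46.32 at the top dose. No neighbouring groups overlapped, and the log2 fold changes were 0.49 ± 0.10, 0.90 ± 0.10 and 1.19 ± 0.10. The gene si:ch211-136a13.1, annotated as a scavenger receptor in the membrane or outside the cell, had 1.73 ± 0.374 FPKM in controls and 3.34 ± 0.578, 3.75 ± 0.302 and 4.18 ± 0.526 with dose, so most of its difference was already there at 6 µg/L. The gene si:ch73-359m17.2, annotated as a fucose-binding protein of innate immunity, stood at 0.933 ± 0.41, 0.94 ± 0.114 and 1.1 ± 0.184 FPKM up to 30 µg/L and at 2.43 ± 0.251 at 50 µg/L.

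Only some macrophage markers rose with this group. The summed level of 6 macrophage markers was 16.8 to 20.6 FPKM in controls, 23.4 to 25 at 6 µg/L, 42.2 to 72.3 at 30 µg/L and 68.9 to 71.0 at 50 µg/L. The lysosomal protease gene ctss2.1 made most of it at 30 and 50 µg/L, with means of 5.49, 6.92, 39.3 and 51.6 FPKM over the 4 groups, and the receptor gene marco went from 1.25 to 6.65. The defining marker mpeg1.1 stood at 6.86, 6.67, 7.60 and 7.79 FPKM over the 4 groups and the growth factor receptor gene csf1ra at 5.05, 6.25, 4.05 and 3.16. At low levels, mfap4 stood at 0.287, 1.19, 0.617 and 0.61 FPKM and cd74a at 0.25, 0.16, 0.407 and 0.303. Of the 5 markers with enough reads to be tested, 2 were higher and 1 lower at 50 µg/L. A list of 4 genes taken as neutrophil markers included cpa5, which is known in zebrafish as a mast cell gene. The sum is thus not of neutrophil genes alone. It was 41.8 to 54.8 FPKM in controls, 33.6 to 40.2 at 6 µg/L, 46.6 to 62.4 at 30 µg/L and 85.8 to 105 at 50 µg/L. At 6 µg/L, lyz and cpa5 were below their control means (19.4 and 3.71 against 26.6 and 10.9 FPKM) and mpx and mmp13a above theirs (8.82 and 6.08 against 6.2 and 5.15), and 1 of the 4 was called lower. Their part in the levels of the immune members was not tested.

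In DNA binding and transcription, 6 members were led in level by zgc:153115, which RefSeq also lists as klf14 and klf16, names of a family of transcription factors. It had 5.64, 6.80 and 13.81 FPKM in controls, 11.59, 14.21 and 13.98 at 6 µg/L, 17.03, 17.05 and 17.6 at 30 µg/L and 16.93, 18.28 and 18.01 at the top dose. Control replicate 3 was in the range of the libraries at 6 µg/L, and against it alone the ratio at 50 µg/L was 1.28, beside 2.85 against the other controls. The gene si:ch211-212k18.5 (chromosome 7, 19552381 to 19558842, plus strand), annotated as a transcription factor of eye and neural tube development, had 0.86, 1.1 and 6.29 FPKM in controls and 8.33, 11.21 and 11.64 at 50 µg/L. Its ratio was 10.6 against control replicates 1 and 2 and 1.65 against control replicate 3. The rod photoreceptor gene rho also stood apart in that library, at 183.37 FPKM beside 7.21 and 10.42 in the other controls. The cone photoreceptor markers differed far less between controls, with gnat2 at 66.17, 58.66 and 84.34 FPKM and opn1sw1 at 404.35, 320.62 and 403.99. The mean of rho was 67, 16.3, 15.4 and 5.24 FPKM from control to 50 µg/L, and the control mean came mostly from control replicate 3. Its libraries ran from 9.84 to 21.72 FPKM at 6 µg/L and from 11.66 to 18.05 at 30 µg/L. Only those at 50 µg/L, at 3.58 to 6.66 FPKM, lay below all controls, so no steady fall over dose is read from rho. A link between rho and this member was not tested. The gene si:ch211-212k18.5 lies 60754 bases from cd68 on the same strand, whose controls lay close together.

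The other 4 of the group, si:dkeyp-44b5.5, si:ch211-161m3.1, zgc:174703 and si:dkey-233e3.3, share a KEGG orthology number that 668 genes of the table carry, 242 of them with a znf (zinc finger) symbol. All 4 lie on chromosome 4, where 60.5% of the genes with that number lie. Their means at 50 µg/L were 1.24, 1.66, 2.63 and 1.78 FPKM, and their ratios to control were 5.74, 3.46, 2.57 and 2.24. In this large family of similar genes the split of reads between copies is uncertain. In all, 7 of 51 members lie on chromosome 4 (13.7%), beside 13.8% of all si: and zgc: genes and 7.42% of all genes.

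The long noncoding RNAs were si:dkey-22l11.6, si:ch211-222n22.1 and si:dkeyp-51b9.3. The first stood at 0.22, 0.17 and 0.41 FPKM in controls, 0.49, 0.42 and 0.31 at 6 µg/L, 1.35, 1.45 and 1.59 at 30 µg/L and 1.82, 2.48 and 2.48 at the top dose, with overlap of the 2 lowest groups only. The second, with 8 counts in the controls together and 55 at 50 µg/L, went from 0.26 ± 0.181 to 1.86 ± 0.17 FPKM. The third stood at 2.97 ± 0.773, 3.09 ± 0.91, 4.38 ± 0.573 and 7.84 ± 0.476 FPKM, so its difference came mostly with 50 µg/L. Its log2 fold change at 6 µg/L was -0.04 ± 0.25, below 0 although the FPKM means rose; edgeR scales the libraries by TMM factors and FPKM does not. The same held for si:ch73-359m17.2 at -0.10 ± 0.35.

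Members with other annotations reached from stress signalling to muscle. The gene si:ch211-39i2.2 is listed by RefSeq also as redd2, the name of a stress-induced inhibitor of the growth kinase mTOR in mammals. It had 7.99, 7.24 and 6.02 FPKM in controls, 8.76, 9.45 and 9.38 at 6 µg/L, 11, 8.77 and 9.62 at 30 µg/L and 19.46, 20.2 and 22.26 at the top dose. The groups at 6 and 30 µg/L overlapped, and the step from 30 to 50 µg/L was 1.07 ± 0.15 on the log2 scale. It lies across 15183 bases of brd8 on the other strand, whose mean was 12.6 FPKM in controls and 13.2 at 50 µg/L.

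The gene si:ch211-225b11.1 has a KEGG orthology number that 17 genes carry, which does not single out 1 substrate. Among them are the solute carrier genes SLC6A13, slc6a11a, slc6a11b, slc6a22.1, slc6a22.2, slc6a6a, slc6a6b and slc6a8. The means of si:ch211-225b11.1 were 4.51 ± 0.547, 4.85 ± 0.703, 8.3 ± 0.698 and 12.4 ± 0.658 FPKM. The gene si:dkey-79d12.5 shares its KEGG orthology number with the antiproliferative genes btg1, btg2 and tob1a, and had means of 1.61 ± 0.377, 1.77 ± 0.178, 2.32 ± 0.0929 and 3.21 ± 0.156 FPKM. The gene zgc:158803, annotated for splice site selection, went from 4.59 ± 0.51 to 9.49 ± 0.671 FPKM. The gene si:ch1073-268j14.1 is mymx, which encodes a small membrane protein needed for the fusion of myoblasts, and went from 0.557 ± 0.0666 to 1.39 ± 0.355 FPKM. The gene si:dkeyp-77c8.3 is a fragment of 538 exonic bases that the reference now assigns to syne2b, which encodes a protein linking the nucleus to the cytoskeleton. The full syne2b entry of the table overlaps it on the same strand and stood at 8.5, 8.99, 9.14 and 6.74 FPKM, without the order of the fragment, whose means were 3.64, 5.70, 7.23 and 7.66.

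Of the 21 members with no placing annotation, zgc:193505 (ENSDARG00000093584, chromosome 13, 22675802 to 22678102, plus strand) was the most highly expressed of the 51. It had 142.98, 118.13 and 106.88 FPKM in controls, 148.7, 120.65 and 153.0 at 6 µg/L, 275.14, 216.08 and 250.84 at 30 µg/L and 340.5, 335.52 and 323.54 at the top dose. The control and 6 µg/L libraries overlapped, and the groups above them did not. Its log2 fold changes were 0.08 ± 0.16, 1.02 ± 0.16 and 1.44 ± 0.16.

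The next in level were si:dkey-238o13.4 and si:ch211-161h7.8. Both had their largest step at the lowest dose. The first went from 7.34 ± 0.824 FPKM in controls to 13.9 ± 1.36, 16.5 ± 2.19 and 20.4 ± 2.00, and the second from 4.65 ± 0.594 to 9.47 ± 0.717, 13.8 ± 0.803 and 16 ± 2.30. In each, every library at 6 µg/L lay above every control, and their log2 fold changes at that dose were 0.81 ± 0.16 and 0.93 ± 0.16. A further member of this kind was si:dkey-24i24.3, which had 0.24, 0.36 and 0.18 FPKM in controls, 0.60, 1.1 and 0.95 at 6 µg/L, 1.19, 0.73 and 0.84 at 30 µg/L and 2.1, 2.54 and 2.63 at the top dose. It overlaps dcst2 on the same strand, whose mean did not exceed 0.0967 FPKM in any group.

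The other 14 unplaced members had ratios of 2.03 to 4.81. The largest was that of zgc:113142, which had 0.39, 0.49 and 0.48 FPKM in controls, 0.57, 0.83 and 0.69 at 6 µg/L, 1.88, 1.30 and 1.54 at 30 µg/L and 2.54, 1.78 and 2.22 at the top dose. Its controls lay below every exposed library, and the 2 highest doses overlapped. The next was si:dkey-199f5.6 at 4.43 times control, with 16 counts in the controls together. The highest in level were si:ch211-126c2.4, with means of 4.16, 5.37, 7.66 and 8.67 FPKM, zgc:171679 with 8.26 FPKM at 50 µg/L, and si:ch211-139a5.1 with 2.92, 5.44, 6.24 and 8.06 FPKM. The last overlaps si:dkey-111e8.1 on the same strand by 7063 bases, and that gene stood at 6.57, 10.2, 10.9 and 12.5 FPKM. The longest member, si:dkey-9l20.3 with 47482 exonic bases, had means of 1.08, 1.95, 3.04 and 3.43 FPKM. The others, si:dkey-238i5.3, si:dkey-43k4.3, si:dkey-102g19.3, zgc:64051, si:ch1073-390k14.1, si:ch211-183d21.1, si:ch73-263o4.3 and si:dkey-39a18.1, reached between 1.56 and 6.79 FPKM at 50 µg/L.

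The strict order of the means did not make an even course. The largest of the 3 log2 steps was that from control to 6 µg/L in 23 members, that from 6 to 30 µg/L in 22 and that from 30 to 50 µg/L in 6. The median steps were 0.60, 0.54 and 0.34 (log2 of the ratio of FPKM means). This order turned with the scaling: in the edgeR fit, which uses TMM factors, the largest step was the first in 20 members, the second in 26 and the last in 5, with median steps of 0.49, 0.65 and 0.33. At 6 µg/L, 4 members were still within 1.1 times the control mean. The libraries at 6 µg/L were all above the controls in 23 members, beside 14.7% of all genes tested, and those at 30 µg/L in 41, beside 13.3%. At 50 µg/L the rule required this of all 51, beside 18.3%. Between doses, the libraries at 30 µg/L were all above those at 6 µg/L in 28 members (14.2% of all genes), and those at 50 µg/L all above those at 30 µg/L in 23 (21.3%). On the FPKM scale, only troap, cd68, si:ch211-139a5.1 and si:ch211-126c2.4 were separate at every step. The share of all genes separate at every step is not given here, so this names the members and is not set against a background.

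**Figure D4:**
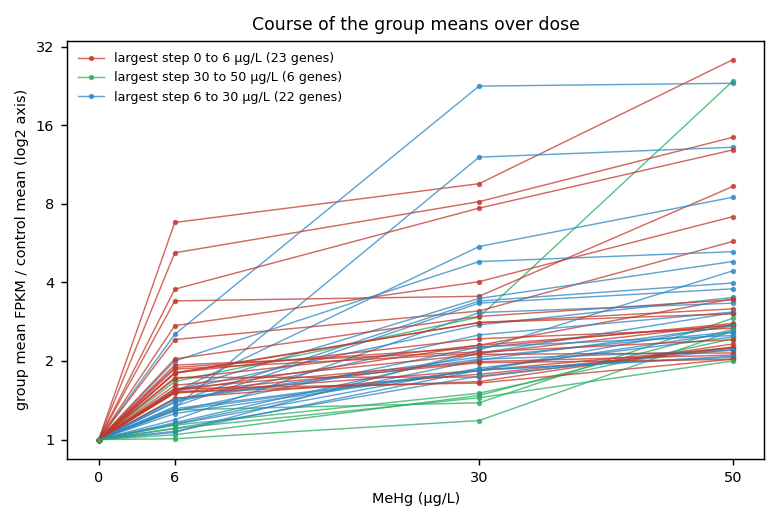
Group mean FPKM over the control mean for each of the 51 members, on a log2 axis against the MeHg concentration in µg/L, coloured by the step with the largest log2 change. The lines show 23 members with their largest step at the lowest dose, 22 between 6 and 30 µg/L and 6 between 30 and 50 µg/L, on the FPKM scale; with TMM scaling the counts were 20, 26 and 5.

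By edgeR, 12 members were called higher than control at 6 µg/L, 43 at 30 µg/L and 50 at 50 µg/L, none was called lower, and 12 were called at all 3 doses. Of all genes tested, 5.48%, 13.4% and 17.6% were called higher at these doses and 8.88%, 17.3% and 21.9% lower. The rule chose the members on these contrasts, so the counts describe them and nothing is read from them. Between doses, 19 members were called higher at 30 than at 6 µg/L and 7 at 50 than at 30 µg/L, where 7.13% and 4.18% of all genes were called higher and 8.44% and 4.44% lower; no member was called lower. The median log2 fold change of the members was 0.49, 1.15 and 1.48. At 6 µg/L the count was 3 when only the compared groups were fitted and 20 without control replicate 3. Without control replicate 1 it was 7, and without MeHg6 replicate 3 also 7. At 30 µg/L it was 28 when only the compared groups were fitted. Calls in the whole si: and zgc: class moved in these fits too. At 6 µg/L the class had 105 higher in the main fit, 26 with the compared groups only and 373 without control replicate 3. At 30 µg/L it had 237 and, with the compared groups only, 99. The moves are thus not particular to the members, and shares of all genes in these fits are not given here. The comparisons share the control libraries, so the counts at the 3 doses are not independent of one another.

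Control replicate 3 was the highest control in 27 members and the lowest in 10, and in 10 it was over 2 times both other controls. Against control replicates 1 and 2, all 51 members were at least 2 times higher at 50 µg/L, with a median ratio of 3.15. Against control replicate 3 alone, 35 were, 15 were not, and si:dkey-261m9.6 was listed at 0 there. The lowest of these ratios were 1.27 for si:dkeyp-77c8.3 and for si:ch211-183d21.1, which had 2.04, 1.62 and 5.35 FPKM in controls and 6.13, 7.21 and 7.03 at 50 µg/L. The rule found 73 genes without that library, 50 of the present members among them. Without control replicates 1 or 2 it found 46 genes each time, 41 and 40 of them present members, and without MeHg50 replicate 2 it found 45, of which 43 are. It found 65 with control replicate 3 as the only control, of which 30 are present members.

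**Figure D5:**
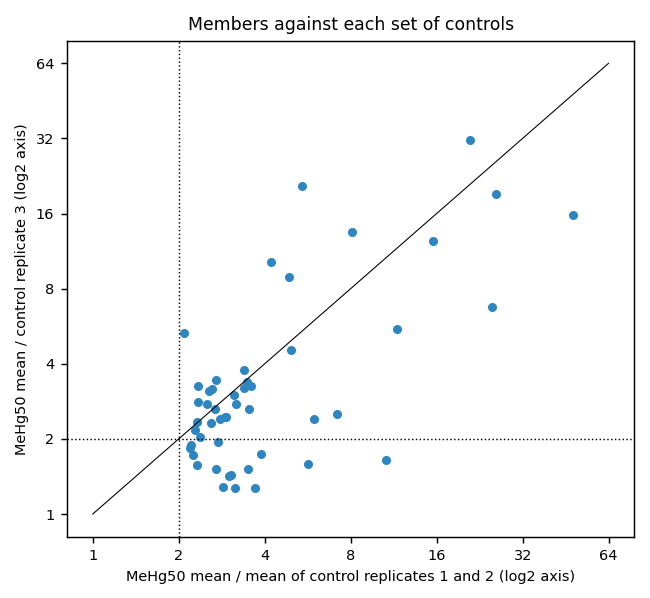
Ratio of the mean at 50 µg/L to the mean of control replicates 1 and 2 (horizontal) and to control replicate 3 (vertical), both on log2 axes, for the 50 members with a value above 0 in that library. The dotted lines mark 2 times control and the solid line equal ratios; 15 members lie below the horizontal dotted line.

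At the 2-fold limit the values ran on without a clear gap, while at the level limit none lay between 0.993 and 1.24 FPKM. Just inside the 2-fold limit were si:dkey-79d12.5 at 2.00, zgc:153115 at 2.03 and si:dkey-39a18.1 at 2.03, and just outside were si:ch211-266o15.1 at 1.99, si:dkey-266m15.7 at 1.93 and zgc:110540 at 1.91. Just inside the level limit were si:dkeyp-44b5.5 at 1.24 FPKM and si:ch211-14a17.10 and zgc:171759 at 1.25, and just outside were si:dkey-56m15.8 at 0.993, si:ch211-241b2.5 at 0.99 and si:dkey-108k21.10 at 0.93. The last of these had a ratio of 27.9. Failing 1 clause alone kept out 50 genes at the fold limit, 34 at the level limit and 2 at the separation of the libraries. The same count was not made for the strict rise, which removed many. Of 147 si: and zgc: genes with at least 1 FPKM and 2 times control at 50 µg/L, 53 had strictly rising means.

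The members are a small part of their class. Of the 4345 si: and zgc: genes, 194 (4.46%) had strictly rising means, 124 of those reached 1 FPKM, and 53 of those 2 times control, before the separation of libraries left 51 (1.17%). Strictly falling means were found in 348 (8.01%), and the mirrored rule for falling genes chose 110 (2.53%). Among the 27712 other genes, 1819 (6.56%) had strictly rising means and 2484 (8.96%) strictly falling means. The rule for rising genes chose 428 (1.54%) of these other genes, and the mirrored rule 759 (2.74%). The falling shares of the class were thus not above those of the other genes. Counted over genes with at least 1 FPKM at 50 µg/L, the shares were 3.17% of 1610 si: and zgc: genes and 2.77% of 15441 others. This base is itself set by the level at 50 µg/L, which a low gene reaches more readily if it rose. In it, 9.13% of the si: and zgc: genes and 5.36% of the others were at least 2 times control. The order of these shares is thus not read as a difference between the classes. The median exonic length was 1490 bases in the members, 1645 in all si: and zgc: genes and 3073.5 in the other genes that met the rule.

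The whole class is defined by names and not by values, so its calls by edgeR (adjusted p under 0.05) are a test. Of 2135 si: and zgc: genes with enough reads, 105 rose and 279 fell at 6 µg/L, 237 rose and 427 fell at 30 µg/L, and 317 rose and 564 fell at 50 µg/L. These are 4.92%, 11.1% and 14.8% higher and 13.1%, 20% and 26.4% lower. Of all genes tested, 5.48%, 13.4% and 17.6% were higher and 8.88%, 17.3% and 21.9% lower. The class median was -0.10, -0.14 and -0.17 on the log2 scale. At 6 µg/L, 27.3% of the calls in the class were higher, and with library totals as the only scaling 137 rose and 213 fell, or 39.1% higher. Single libraries moved these counts. At 6 µg/L, 373 rose and 675 fell without control replicate 3, 69 rose and 178 fell without control replicate 2, and 159 fell without control replicate 1. Without MeHg6 replicates 1, 2 or 3 in turn, 172, 135 and 144 fell, and without replicates 2 and 3 only 51 and 47 rose. At 30 µg/L, 417 rose and 731 fell without control replicate 3, 155 rose without MeHg30 replicate 1, and 150 rose and 270 fell without MeHg30 replicate 3. With the compared groups alone in the fit the counts were 26 and 82, 99 and 182, and 185 and 332. All 51 members passed the filter for the test, a mean of 0.5 FPKM over the 12 libraries. The rule had asked for at least 1 FPKM at 50 µg/L, so this is no separate check of their level. For si:ch211-183d5.2 the group means were 0.12, 0.20, 0.353 and 2.83 FPKM, so it passed mainly through the top dose.

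Reads of 13 members may be mixed with those of another gene, since their spans overlap one in the table, 7 on the same strand and 7 on the other, with zgc:171679 in both counts. The strand setting of the counting is not given in the sources used here. Control counts were under 30 in all 3 controls together for 12 members, 7 of them among the 8 with the largest ratios, so the largest ratios are also among the least precise.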

How the data were processed

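RNA was measured by poly(A)-selected paired-end sequencing of 150-base reads, per the labels' protocols, in 12 libraries of whole zebrafish embryos, 3 per group. The authors deposited raw read counts per gene and FPKM values. Per the submitters' processing notes, which give no roles, the tools were HISAT2 2.0.1, HTSeq 0.6.1, FastQC 0.10.1, cutadapt 1.9.1 and DESeq2, with the build GRCz11. Which annotation release was used, and whether counting was stranded, is not given in the sources used here. The deposited FPKM equal the count over exonic length and library total within 0.005 in 100% of values.

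The members and the gene lists were chosen with earlier results of these data known. Genes with a mean of at least 0.5 FPKM over the 12 libraries were tested (19821) in 1 fit of all 4 groups to the deposited counts, with TMM scaling and edgeR 4.0.16's quasi-likelihood test (R 4.3.3), Benjamini-Hochberg adjustment over all of them and a threshold of 0.05. The SE of a log2 fold change is its size over the square root of F and is approximate. Alternatives used DESeq2 1.42.0 and limma 3.58.1 on log2(FPKM + 1) or log2(FPKM + 0.1). The edgeR step was also run on simulated counts, as a check of the code only. These had the same dispersion for all genes and no control library apart from the others, unlike the data here.

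Members were named if among the 10 largest ratios, the 10 highest levels, those within 100 kb of another member, those at 2 times control at 6 µg/L, those nearest the limits, or up to 4 per annotation class. The classes and the remaining names were settled after the annotation and the values were seen, since the deposited descriptions only repeat the symbols. Current symbols came by gene ID from the reference table and RefSeq names from a table of GRCz12tu, whose coordinates were not used. Promoter and protein sequences were not used here.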

Additional observations from a re-analysis of the deposited data

How the results depend on the processing

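For the log2 fold changes of the 51 members at 50 µg/L, no direction reversed in 1050 alternatives, of which 1035 kept the side of the threshold, 13 lost the call and 2 gained it. Members that an alternative filter left out are not counted there. The rule had chosen the members on this contrast in the same libraries, so a reversal was hardly possible and nothing is read from these counts. At 6 µg/L single members were not run under the alternatives, and 2 differ in sign between FPKM and TMM scaling. The number of members was 86 at 1.5 times control and 23 at 3 times control, and 45 to 73 when libraries were left out in turn. With FPKM divided by the TMM factors it was 64, of which 49 are present members. With group medians in place of means it was 63, of which 41 are. Leaving out libraries gave 7 to 20, 34 to 46 and 49 to 51 members called higher at 6, 30 and 50 µg/L, with median log2 fold changes of 0.42 to 0.63, 1.12 to 1.33 and 1.47 to 1.61. For all si: and zgc: genes it gave 47 to 373, 150 to 417 and 237 to 440 higher, and 135 to 675, 270 to 731 and 402 to 791 lower. With only the compared groups fitted, 3 and 28 members were called at 6 and 30 µg/L, and the class had 26, 99 and 185 higher and 82, 182 and 332 lower. A filter at 2 FPKM tests fewer genes and leaves out the members with a lower mean, so its counts are not lost calls alone. With it, 27 and 30 members were called at 30 and 50 µg/L, the median at 30 µg/L was 1.08, 147 and 194 of the class were higher at these doses, and 180, 273 and 344 were lower at the 3 doses. The member median was 0.60 at 6 µg/L with library totals only, 1.52 at 50 µg/L with no filter, 0.57 at 6 µg/L by limma with 0.1 added, and 0.32, 0.73 and 1.03 by limma with 1 added, where the class had 161 higher at 6 µg/L; adding 1 shrinks low genes by construction, and otherwise the cause was not tested. The median of all genes at 6 µg/L moved too. It was -0.0048 in the main fit, 0.093 with library totals only, and 0.089 and 0.12 by limma with 1 and 0.1 added. With the replicate block, 11, 43 and 49 members were called and the medians were 0.51, 1.18 and 1.49. The labels do not say that numbers pair samples, and only 8 of 18 same-numbered pairs deviated together with r over 0.1 (range -0.28 to 0.42). Depth limits the 12 members with under 30 control counts, and 3 libraries per group limit all tests.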
